A study of Mus musculus with 32 samples.

Results

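Lung metastases were compared with primary mammary carcinomas, over all genes, in 16 of the 32 laser-captured tissue regions of the series: 7 libraries of tumour regions in the lung and 9 libraries of carcinoma regions in the mammary gland. The regions were chosen by the stage named in the labels and in the column names of the count table, and no expression value entered that rule. The comparison and the gene lists were chosen with earlier results of these data known. All animals were female mice carrying MMTV-PyMT, a viral oncogene driven by a promoter that is active in mammary epithelium. They also carried the R26-CBW colour reporter and K8-CreERT2, a recombinase driven by the keratin 8 promoter, which tamoxifen (5 mg, given at 5 weeks of age) activates. Neither group was free of the oncogene, the reporter or tamoxifen. Carcinoma regions lay in the tumour core (6 libraries) or at the tumour border (3 libraries), and metastasis regions in the centre of the lung (metastasis 2, 27 and 42) or at its border (metastasis 40, 56, 57 and 58). Each region was a patch of 1 reporter colour on a section of 7 µm: carcinomas gave 1 GFP, 5 RFP and 3 YFP regions and metastases 1 GFP, 5 RFP and 1 YFP region. The number of animals is given as 3, and which of them a region came from is not stated. Some regions of a group therefore share an animal, and regions of both groups may do so too. All p-values over regions treat the regions as independent. They can be too small because regions of a group share an animal, and how far they err cannot be told. Libraries keep the number that their label gives.

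The lung that surrounds a metastasis holds cell types that a mammary tumour lacks, beside vessels and blood cells that both have. Flat alveolar type 1 cells carry gas exchange, and cuboidal alveolar type 2 cells secrete surfactant, a lipid and protein film that lowers surface tension. Club and ciliated cells line the airways, and a dense capillary bed brings red blood cells, platelets and neutrophils close to every alveolus. The surfactant proteins are among the most restricted products of the lung, so they are commonly used to recognise lung RNA in samples of other origin. Mammary tumour cells of this model are luminal, with keratins 8 and 18, E-cadherin and some milk protein genes.

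Total counts ran from 4443497 to 19564392 over the 16 libraries. A gene was detected (at least 1 count) for 14660 ± 2598 genes per metastasis library (SD, n = 7) and 15834 ± 1336 per carcinoma library (n = 9), an exact permutation p of 0.266 (two-sided). The most abundant gene ID, which has no symbol in the RefSeq table, held between 8.15 and 78.9% of a library's counts, with means of 30.3 ± 26.5% in metastases and 24.2 ± 15.1% in carcinomas (exact permutation p = 0.584, two-sided). Metastasis 40 held the highest share and metastasis 42 the fewest detected genes (10383). Levels are given in CPM, counts scaled to a common library size after correction by TMM, a method that sets libraries on a common scale from the bulk of their genes. A fold change is the log2 ratio of metastasis over carcinoma fitted by edgeR, with its standard error. Markers of the labelled tissue were present in both groups: Krt8, the keratin that drives the recombinase, had a lowest, median and highest level of 484, 532 and 749 CPM in metastases and of 400, 697 and 1460 CPM in carcinomas, and Epcam, an epithelial adhesion protein, one of 207, 355 and 566 against 334, 510 and 992 CPM. Epithelial RNA was thus read in every library of both sites.

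Of 19907 genes tested, 3 passed a Benjamini-Hochberg adjusted p of 0.05 in edgeR's quasi-likelihood test, all higher in metastases (0.0151% of the genes tested): the surfactant genes Sftpc, Sftpb and Sftpa1. In the other direction 0 genes passed (0%), with 1126 at an unadjusted p under 0.05, and limma voom called 3 and the DESeq2 Wald test 101. At an unadjusted p under 0.05 stood 1038 genes higher in metastases (5.21%) and 1126 lower (5.66%). The median fold change over all genes was -0.01 on the log2 scale. In a separate reading that uses no model, the 7 metastases lay wholly above the 9 carcinomas for 6 genes (0.0301%) and wholly below for 12 (0.0603%).

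The genes were then split into 3 classes. Host genes were the 139 tested members of 10 marker lists of lung and blood cells. The name follows the lists, and some of their genes were also read in carcinomas. Of the 21 tested macrophage genes, 18 had at least 5 CPM in at least 50% of the carcinomas. Genes expressed in both sites were the 8672 others with at least 5 CPM in at least 50% of the libraries of each group, and 11096 genes formed the rest. Host genes held all 3 called genes and all 6 genes whose metastases lay wholly above the carcinomas. At an unadjusted p under 0.05, 28 host genes were higher (20.1%, against 5.21% of all genes) and 10 lower (7.19%, against 5.66%), and their median fold change was 0.81. Because the lists were chosen with earlier results of these data known, these counts are a description and no independent support. Of genes expressed in both sites, 0 passed in edgeR (smallest adjusted p = 0.206), against 4 in limma voom and 19 in DESeq2. Here 226 (2.61%) were higher and 117 (1.35%) lower at an unadjusted p under 0.05, with a median fold change of 0.04. Both shares lie below those of all genes. The class rule, drawn from the same levels, keeps out genes read at 1 site only, so the low shares are no result about shared genes. In the remaining class 784 genes were higher (7.07%) and 999 lower (9%), with a median of -0.16. In that class 0 passed in edgeR, against 5 in limma voom and 156 in DESeq2. Genes with low p-values often had their level concentrated in 1 region. Of the 1038 on the higher side, 82.5% had over 50% of their metastasis CPM in 1 library, against 51.2% of all genes with a fold change above 0. Of the 1126 on the lower side, 72.3% had the same of their carcinoma CPM, against 36.7% of all genes with a fold change under 0. Among genes expressed in both sites the shares were 51.3% against 17% on the higher side and 5.13% against 1.7% on the lower side. Which library held the level was not tallied over these genes. With any single library left out, 1791 to 2407 genes had an unadjusted p under 0.05, against 2164 with all libraries. The lowest number, 1791, was that without metastasis 42. Such numbers do not tell in which library a gene was concentrated.

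**Figure D1:**
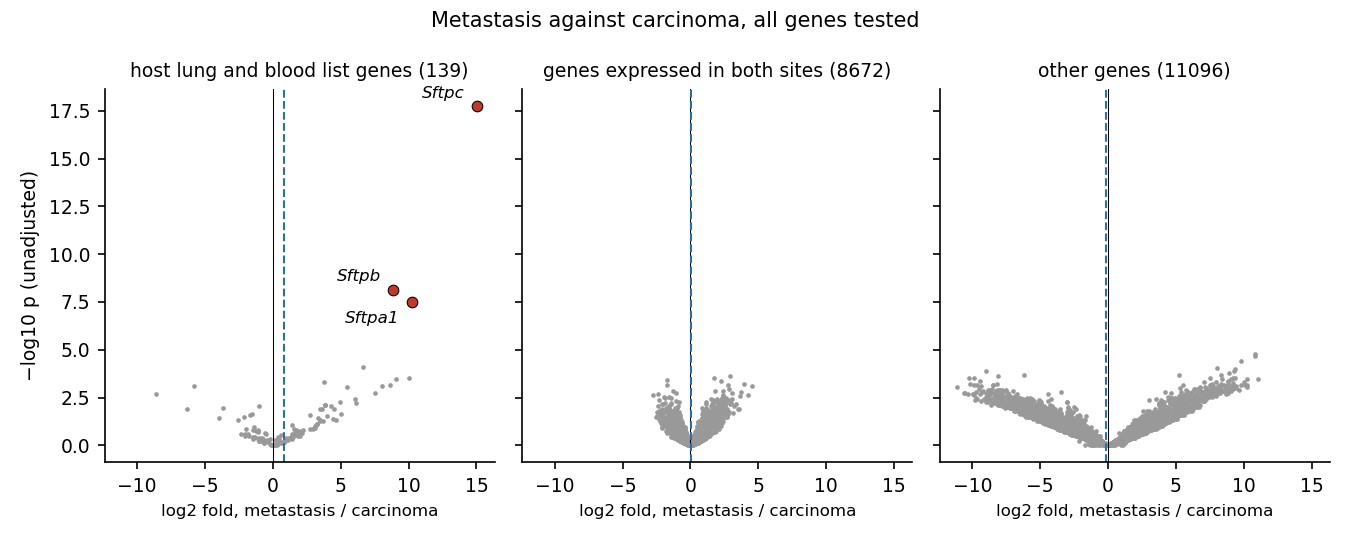
Fold change (x axis, log2, metastasis over carcinoma) against −log10 of the unadjusted edgeR p (y axis) for each gene tested, in 3 panels by class. Red points are the 3 genes with an adjusted p at or under 0.05, grey points all others, and the dashed line is the median of the class (0.81 for host genes, 0.04 for genes expressed in both sites and -0.16 for other genes).

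Surfactant protein genes separated the sites completely. Sftpc encodes surfactant protein C, a small hydrophobic protein made by alveolar type 2 cells (chr14:70520941-70524081, RefSeq GRCm38.p6). Its level was 3687 CPM in metastasis 2, 1656 in metastasis 40, 3461 in metastasis 56, 389 in metastasis 57, 414 in metastasis 42, 246 in metastasis 58 and 957 in metastasis 27. In carcinomas 3 counts were read in carcinoma 39 (0.636 CPM) and 0 in the other 8 libraries. Every metastasis held Sftpc, and the groups did not overlap. The fitted change was 15.03 ± 0.99 on the log2 scale (adjusted p = 3.52e-14), and the ratio of pooled CPM was 61681 (95% interval 21105 to 299099, counting error only). Sftpb encodes surfactant protein B, which is required for the film to spread (chr6:72304610-72314373). Its level was 253, 194, 181, 47, 135, 39.6 and 50.9 CPM in metastases 2, 40, 56, 57, 42, 58 and 27. Carcinomas had 24 counts in 2 libraries, at 1.27 CPM in carcinoma 37 and 1.06 CPM in carcinoma 38. The change was 8.88 ± 1.23 (adjusted p = 7.12e-05), with a pooled ratio of 576 (387 to 900). Sftpa1 encodes surfactant protein A, a collagen-like lectin of alveolar defence (chr14:41131788-41136373). It was read at 395, 88.4, 160, 11.7, 150, 22.3 and 173 CPM in the same metastases and at no more than 1.06 CPM in any carcinoma, where 8 counts fell in 3 libraries. The change was 10.25 ± 1.44 (adjusted p = 2.03e-04), with a pooled ratio of 2354 (1195 to 5455).

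Surfactant levels varied widely among metastases. Metastasis 2 had the highest level of each of the 3 genes and metastasis 58 the lowest of Sftpc and Sftpb, while metastasis 57 had the lowest of Sftpa1. The range was from 246 to 3687 CPM for Sftpc, from 39.6 to 253 CPM for Sftpb and from 11.7 to 395 CPM for Sftpa1. Regions of the lung border (40, 56, 57 and 58) and of the lung centre (2, 27 and 42) overlapped in all 3 genes. In a bulk region, more alveolar cells and more surfactant RNA per cell cannot be told apart. With the lung border regions alone Sftpa1 no longer passed (adjusted p = 0.223), and with the 5 RFP regions of each site alone only Sftpc passed (adjusted p = 0.245 for Sftpb and 0.338 for Sftpa1). In the other stages of the mammary gland the genes were nearly unread: normal gland had 0 counts of each, adenoma 4 counts of Sftpc, 1 of Sftpb and 0 of Sftpa1, and hyperplasia 1, 4 and 21 counts.

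The promoters of the called genes are shown because the genes moved together. The RefSeq table of GRCm38.p6 windows, each from 250 bases before to 50 bases after the start, held those of Sftpb (chr6:72304360-72304659, plus strand) and Sftpa1 (chr14:41131538-41131837, plus strand), and not that of Sftpc. Capitals mark CTCAAG, a core of sites bound by the lung transcription factor NKX2-1, and TATAAA, near which transcription commonly starts.
Sftpb: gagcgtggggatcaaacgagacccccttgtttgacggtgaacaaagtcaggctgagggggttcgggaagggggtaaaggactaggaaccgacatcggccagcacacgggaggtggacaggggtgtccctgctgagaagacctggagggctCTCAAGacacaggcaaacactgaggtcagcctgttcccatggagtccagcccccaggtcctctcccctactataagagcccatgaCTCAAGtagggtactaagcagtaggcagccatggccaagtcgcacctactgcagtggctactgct
Sftpa1: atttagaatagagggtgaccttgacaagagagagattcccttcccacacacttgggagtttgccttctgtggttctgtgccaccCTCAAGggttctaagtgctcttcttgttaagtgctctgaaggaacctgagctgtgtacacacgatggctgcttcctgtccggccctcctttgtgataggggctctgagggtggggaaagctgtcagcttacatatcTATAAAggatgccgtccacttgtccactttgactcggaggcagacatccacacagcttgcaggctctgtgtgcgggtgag
CTCAAG was found in the Sftpb window 100 and 15 bases before the start, and in that of Sftpa1 166 bases before it, on the strand of the gene in each case. TATAAA lay 30 bases before the start of Sftpa1. The forkhead core TGTTTAC was in neither window. Over 27018 promoter windows of the same length, searched on both strands, 16.2% held CTCAAG, 14.2% TATAAA and 3.55% TGTTTAC. A match of this kind is common and describes the letters only. Nkx2-1 itself was read at 0 to 24.3 CPM in metastases (median 0.52) and at 0 to 6.02 CPM in carcinomas (median 0.0589), with a change of 2.74 ± 1.82 (adjusted p = 0.672).

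**Figure D2:**
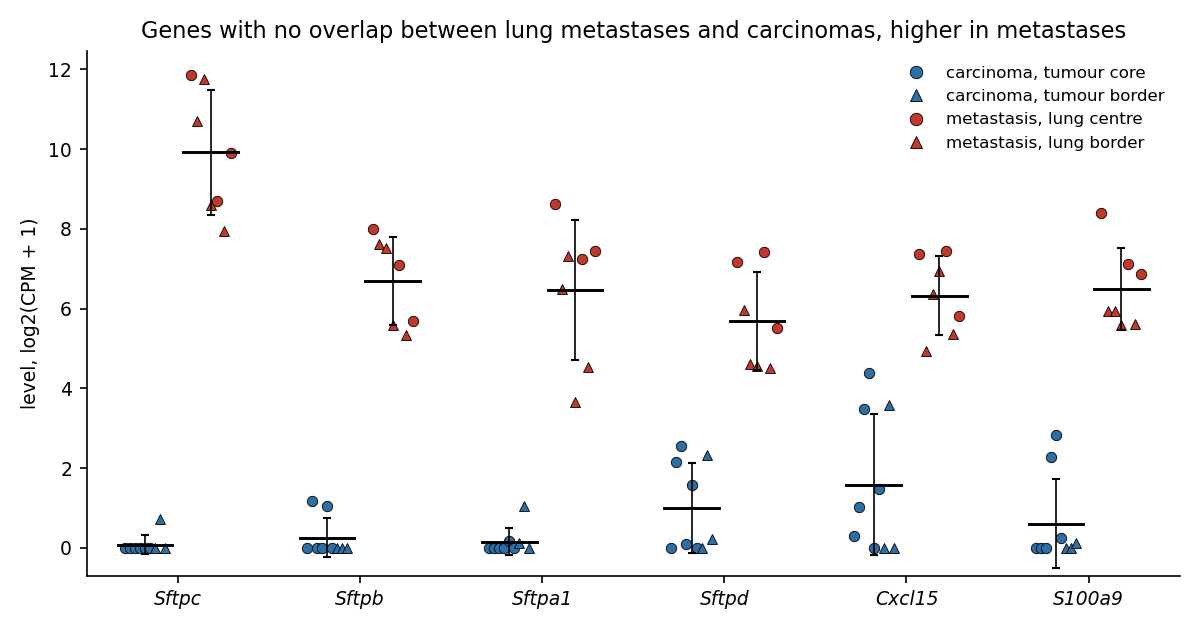
Level in each library, as log2(CPM + 1) on the y axis, of the 6 genes whose metastases (red) lay wholly above the carcinomas (blue). Circles are core or centre regions and triangles border regions. Horizontal bars are means and whiskers SDs of the plotted values (n = 9 carcinomas and 7 metastases), and no red point lies at or below a blue one of the same gene.

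The alveolar type 2 list as a whole had 11 of 14 tested genes on the higher side and a median fold change of 2.02, against -0.01 over all genes. In edgeR the 3 called genes passed and 11 members did not, DESeq2 also called Sftpd (adjusted p = 0.0400), and limma voom also called Sftpd (adjusted p = 2.27e-04) and Cxcl15 (adjusted p = 0.00350). At an unadjusted p under 0.05, 5 were higher and 1 lower. Over all genes tested, 5.21% were higher and 5.66% lower at that p, and counts of the lists below are to be read beside these shares. Sftpd, surfactant protein D, had 21.7, 44.9 and 171 CPM in metastases (lowest, median and highest, here and for the genes that follow) and 0, 0.168 and 4.87 CPM in carcinomas, so the groups did not overlap (5.45 ± 1.52, adjusted p = 0.206). Cxcl15, lungkine, a chemokine of lung epithelium, had 29.5, 81.6 and 173 CPM against 0, 1.03 and 19.9 CPM and did not overlap either (4.28 ± 1.57, adjusted p = 0.259). Slc34a2, the phosphate transporter of type 2 cells, overlapped, with 21.1, 40.7 and 66.4 CPM against 0, 10.1 and 45.6 CPM. Not every member marks the lung in these samples: 4 of the 14 had at least 5 CPM in at least 50% of the carcinomas. Abca3, the lipid pump of lamellar bodies, had 59.5, 73 and 153 CPM in metastases against 61.4, 95.2 and 350 CPM in carcinomas. Etv5, a transcription factor of type 2 cells, had 21.1, 84.3 and 173 CPM against 40.4, 135 and 205 CPM. The summed level of the list ran from 558 to 5407 CPM in metastases (median 1537) and from 177 to 542 CPM in carcinomas (median 281). These sums did not overlap, but they include Sftpc, which was described above. It gave 246 of the 558 CPM in metastasis 58, and without it the groups would overlap.

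The alveolar type 1 list had 7 of 12 genes on the higher side, a median of 0.77 and 0 passing in edgeR or DESeq2 (3 higher and 1 lower at an unadjusted p under 0.05), while limma voom called Ager (adjusted p = 0.0457) and Cldn18 (adjusted p = 0.00350). Ager, a receptor carried at high level by type 1 cells, had 1.19, 19.2 and 74.8 CPM in metastases against 0, 0.633 and 8.35 CPM in carcinomas (3.83 ± 1.37, adjusted p = 0.252). Cldn18, a tight junction protein of alveolar epithelium, had 1.93, 38.5 and 129 CPM against 0, 0 and 6.56 CPM (4.94 ± 1.66, adjusted p = 0.235). Aqp5, the water channel that is also found in glands, went the other way, with 190, 462 and 868 CPM against 269, 578 and 2238 CPM (-1.01 ± 0.37, adjusted p = 0.256). It was read in all carcinomas, and the summed level of the list overlapped between sites (419 to 1005 against 519 to 2379 CPM). The airway list had 6 of 9 tested genes on the higher side, a median of 1.68 and 0 passing in edgeR (1 at an unadjusted p under 0.05). Scgb1a1, the secretoglobin of club cells, was read in 5 metastases, up to 48.5 CPM in metastasis 58, and in carcinoma 6 alone with 3 counts (8.0 ± 2.17, adjusted p = 0.206 in edgeR, 0.0487 in DESeq2 and 0.0147 in limma voom). The pooled ratio was 420, with a counting interval of 143 to 2043. Metastasis 58 thus had the highest Scgb1a1 and the lowest Sftpc level of the 7. Scgb3a1, Bpifa1, Foxj1 and Dynlrb2 of that list did not reach the count filter.

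**Figure D3:**
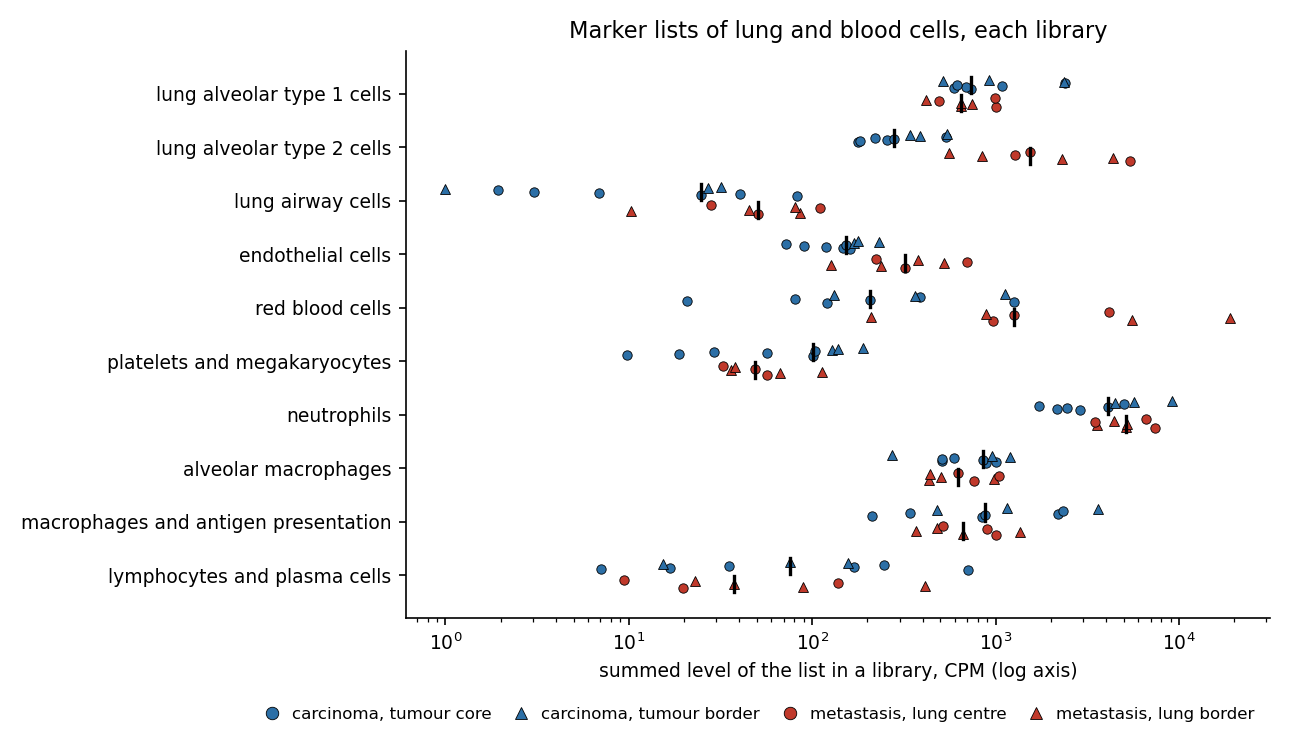
Summed level of each of the 10 lung and blood marker lists in each library (x axis, CPM, log scale), with carcinomas in blue and metastases in red, core or centre regions as circles and border regions as triangles. Black bars are group medians. The type 2 sums do not overlap (558 to 5407 against 177 to 542 CPM), and those of the other 9 lists do. Sftpc is part of the type 2 sums, which would overlap without it.

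Endothelial genes leaned the same way without passing. Of 24 tested, 21 were on the higher side, with a median of 1.71 and 0 passing in edgeR, DESeq2 or limma voom (3 at an unadjusted p under 0.05). Cdh5, the cadherin of vessel walls, had 1, 16.2 and 50.6 CPM in metastases against 0, 1.48 and 9.66 CPM in carcinomas (2.77 ± 1.20, adjusted p = 0.357). Pecam1, the adhesion molecule CD31, had 4.01, 8.94 and 17.1 CPM against 1.34, 2.54 and 7.75 CPM (adjusted p = 0.813). Sox17, a transcription factor of endothelium, was read in 4 metastases and in carcinoma 7 alone. Vessel genes were present in both sites, and the summed level ran from 126 to 698 CPM in metastases and from 72.3 to 231 CPM in carcinomas.

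Blood cell genes split by cell type. Globin genes of red cells had the widest range: Hbb-bs, a beta globin, had 42.5, 241 and 5252 CPM in metastases against 0, 31.6 and 355 CPM in carcinomas (3.6 ± 1.38, adjusted p = 0.278). Hba-a1 and Hba-a2, alpha globins, are near-identical copies whose reads cannot be assigned with certainty, and each had a change of 3.81 ± 1.37 (adjusted p = 0.254). Metastasis 56 had the highest level of all 4 globin genes on the list and metastasis 57 the lowest, and the groups overlapped for each. The red cell list had 8 of 11 genes on the higher side and a median of 1.47. Hemgn, a nuclear protein of red cell precursors, had no count in any metastasis and 207 counts in carcinomas, nearly all in carcinoma 39 (41.9 CPM). The platelet list had 2 of 7 on the higher side and a median of -0.36, and its member Itgb3 had 18.1, 39.2 and 58.4 CPM against 1.56, 37.3 and 104 CPM.

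Neutrophil genes had the highest median of the 36 lists, 4.47, with 13 of 14 tested genes on the higher side. This median lies between the changes of Mmp9 (4.39) and Ly6g (4.54), whose levels were concentrated in single libraries. Mmp9 had 86.6% of its metastasis CPM in metastasis 40, and Ly6g 95.9% in metastasis 2. None passed in edgeR, and 10 had an unadjusted p under 0.05, all higher, while limma voom and DESeq2 each called S100a8 and S100a9. DESeq2 also called Camp and Retnlg, with fitted log2 changes of 24.4 and 25.3. With 0 counts in carcinomas, these 2 changes have no upper bound. S100a9, a calcium-binding protein that fills the cytoplasm of neutrophils (chr3:90692630-90695721), stood at 335, 59.9, 60.6, 46.7, 138, 48.1 and 116 CPM in metastases 2, 40, 56, 57, 42, 58 and 27. In carcinomas it was read in 4 of 9 libraries, at no more than 6.09 CPM. All metastases lay above all carcinomas (6.65 ± 1.53, adjusted p = 0.206), and with the 16 libraries fitted alone it passed (adjusted p = 0.0197). Its partner S100a8 had 44.5, 128 and 554 CPM against 0, 17.4 and 53.7 CPM and overlapped (3.76 ± 1.0, adjusted p = 0.206). Granule genes were sparse. Camp, the cathelicidin peptide, Retnlg, a resistin-like protein, and Wfdc21 had no count in any carcinoma and were at least 129-, 805- and 289-fold higher in metastases, against a floor of 3 counts over the carcinoma group. They were read in 4, 3 and 5 of 7 metastases, and metastasis 2 held the highest level of Retnlg (77.4 CPM) and Wfdc21 (22.5 CPM). It gave 1462 of the 1539 Retnlg counts and 425 of the 552 Wfdc21 counts, and without it the bounds were at least 56-fold for Retnlg and 92.3-fold for Wfdc21. For Camp, the bound without metastasis 2 was 120-fold. Lcn2, lipocalin 2, is made by neutrophils and by epithelium, and it had 3206, 4724 and 6372 CPM against 1717, 4101 and 9113 CPM, a change of 0.18 ± 0.29 (adjusted p = 0.924).

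Macrophage genes leaned the other way. The list of macrophages and antigen presentation had 14 of 21 genes on the lower side, a median of -1.07, 0 passing in edgeR, DESeq2 or limma voom and 5 at an unadjusted p under 0.05, all lower. Of its members 18 had at least 5 CPM in at least 50% of the carcinomas. Cd74, the invariant chain of class II antigen presentation, had 19.7, 84.3 and 123 CPM in metastases against 26.7, 126 and 583 CPM in carcinomas (-1.58 ± 0.67, adjusted p = 0.343). Apoe, a lipid carrier of macrophages, had 15.6, 70.1 and 381 CPM against 22.1, 268 and 1500 CPM (-1.70 ± 0.73, adjusted p = 0.352). Ms4a7, a membrane protein of tissue macrophages, was read in all 9 carcinomas and in 3 of 7 metastases. Alveolar macrophage genes had a median of 0.87, with 7 of 11 on the higher side and 0 passing in edgeR (1 higher and 1 lower at an unadjusted p under 0.05). The lower of these was Fabp4, a fatty acid-binding protein that adipocytes also carry. It had 6 counts in 2 metastases against 485 counts in 7 carcinomas, at most 0.265 against 12.3 CPM (-5.80 ± 1.6, adjusted p = 0.206 in edgeR and 0.00378 in DESeq2). The higher was Ear2, an eosinophil-type ribonuclease read in lung macrophages, which reached 67.2 CPM in metastasis 56 and had 0, 0 and 6.77 CPM in carcinomas (4.01 ± 1.76, adjusted p = 0.365). Lymphocyte genes had a median of 0.15, with Jchain, the joining chain of plasma cell antibodies, from 0 to 391 CPM in metastases and from 0 to 689 CPM in carcinomas.

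Stromal lists were not counted as host genes. The mammary tumour has stroma of its own, but it also has vessels and macrophages, whose lists were counted. Fibroblast and matrix genes had the lowest median of the 36 lists, -1.52, with 20 of 23 on the lower side, 0 passing in edgeR or limma voom and 9 at an unadjusted p under 0.05, all lower, while DESeq2 called Dcn, Lum, Col1a1 and Col6a2, also lower. Dcn, the collagen-binding proteoglycan decorin, had 0, 0.73 and 2.81 CPM in metastases against 3.57, 6.33 and 55.2 CPM in carcinomas, with no overlap (-4.18 ± 1.37, adjusted p = 0.227). Lum, the related lumican, had 3 counts in metastasis 2 and none in the other metastases, against 1375 counts in 7 carcinomas (-8.12 ± 2.03, adjusted p = 0.206; DESeq2 adjusted p = 4.43e-05). Col1a1, the chain of type I collagen, had 1.86, 18.3 and 50 CPM against 4.57, 67 and 667 CPM (-2.72 ± 0.85, adjusted p = 0.223). Sparc, a matrix glycoprotein also made by other cells, had 50.8, 150 and 253 CPM against 5.8, 116 and 691 CPM, a change of -0.16 ± 0.57. Adipocyte genes were mixed: Adipoq, Plin1 and Lep had no count in metastases, and Cd36, a fatty acid transporter that endothelium and macrophages also carry, had 4.59, 17 and 78 CPM against 0, 0.212 and 5.8 CPM (4.40 ± 1.41, adjusted p = 0.224; limma voom adjusted p = 0.00877). Smooth muscle genes had a median of 0.69. Mesothelial genes, which cover the lung surface, had one of 0.32, with Upk3b at 0 counts in metastases and 15 in 1 carcinoma.

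Of the 5 genes expressed in both sites with the smallest p on the higher side, Txnip had the most even pattern, with 27.7% of its metastasis CPM in 1 library against 42.1 to 84.6% for the other 4. Txnip, an arrestin that binds thioredoxin and answers to glucose, stood at 447, 446, 849, 519, 209, 97.8 and 501 CPM in metastases 2, 40, 56, 57, 42, 58 and 27, and at 48.3, 114 and 243 CPM in carcinomas (lowest, median and highest). All metastases but 42 and 58 lay above all carcinomas. The change was 1.75 ± 0.45 (adjusted p = 0.206; DESeq2 adjusted p = 0.00281), and it ran from 1.41 to 1.93 over the 30 alternative settings. Txnip shares its position with Gm15441, so without a stated strand the reads of the pair cannot be told apart. Chp1, a calcium-binding partner of sodium-proton exchangers, had 8.02, 39.4 and 840 CPM against 3.44, 14.6 and 49 CPM (2.94 ± 0.73). Eea1, a tether of early endosomes, had 14.9, 75.3 and 1119 CPM against 19.6, 46.1 and 74.9 CPM (2.28 ± 0.59). Ncoa6, a nuclear receptor coactivator, had 18.4, 33.6 and 1093 CPM against 5.22, 22.6 and 80.1 CPM (2.77 ± 0.76). The highest value of all 3 was that of metastasis 42, the library with the fewest detected genes. Without it the changes were 1.01 for Chp1, 0.71 for Eea1 and 0.27 for Ncoa6 (adjusted p = 0.779, 0.810 and 0.979). C1qtnf1, a secreted C1q-like protein, had 2.01, 45.4 and 481 CPM against 0, 8.72 and 33 CPM (3.94 ± 1.07, adjusted p = 0.206).

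On the lower side, 4 of the 8672 genes expressed in both sites had no overlap, against 12 of the 19907 genes tested (0.0603%). The share is no higher than that over all genes, so the count is no result about shared genes. Cacnb3, a calcium channel subunit, stood at 27.2, 10.2, 6.75, 9.69, 3.24, 4.88 and 17.1 CPM in metastases 2, 40, 56, 57, 42, 58 and 27 and at 33.3, 57.2 and 98.8 CPM in carcinomas (-2.42 ± 0.74, adjusted p = 0.214; DESeq2 adjusted p = 0.0104). Slc29a3, a nucleoside transporter, had 1.89, 17.2 and 56.3 CPM against 65.5, 86 and 150 CPM (-1.99 ± 0.63, adjusted p = 0.224). Ankrd13b, an ankyrin repeat protein, had 8.11, 23.1 and 35 CPM against 37.8, 70.7 and 127 CPM (-1.61 ± 0.58, adjusted p = 0.256). Pold1, the catalytic subunit of DNA polymerase delta, had 1.08, 5.47 and 22.9 CPM against 22.9, 30.3 and 84.6 CPM, with a margin smaller than the rounding (-2.01 ± 0.87, adjusted p = 0.355). These genes were named after their values were seen, apart from Cacnb3. The other 8 genes without overlap on the lower side were Dcn (above), Magix, Cd164l2, Fzd9, Aspg, Rab17, Plpp7 and Raver2, of the remaining class. Rab17, a small GTPase of polarised epithelium, had 0, 3.1 and 12.1 CPM against 13.1, 24.8 and 61.4 CPM (-2.76 ± 1.08, adjusted p = 0.285). Ddah1, an enzyme that degrades methylated arginines, had 0, 2.56 and 9.36 CPM against 7.91, 41.5 and 93.3 CPM (-3.46 ± 1.03, adjusted p = 0.206). Pmepa1, a target and inhibitor of TGF-beta signalling, had 121, 241 and 286 CPM against 64.8, 492 and 977 CPM (-1.27 ± 0.37, adjusted p = 0.206), and only carcinoma 37 lay below the metastases' highest value. Kcnn4, a calcium-activated potassium channel, had 215, 466 and 991 CPM against 417, 867 and 2496 CPM (-1.07 ± 0.32, adjusted p = 0.206). Ercc2, a helicase of DNA repair, and Klc3, a kinesin light chain, each had a change of -1.75 (SE 0.45 and 0.48, adjusted p = 0.206). They overlap on chromosome 7 by 1255 bases and their values moved together, so they are uncertain as separate genes. Host RNA moved with these results, since Sftpc and the type 2 sums that include it were higher in all metastases than in all carcinomas. The part of host RNA in these results was not tested.

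**Figure D4:**
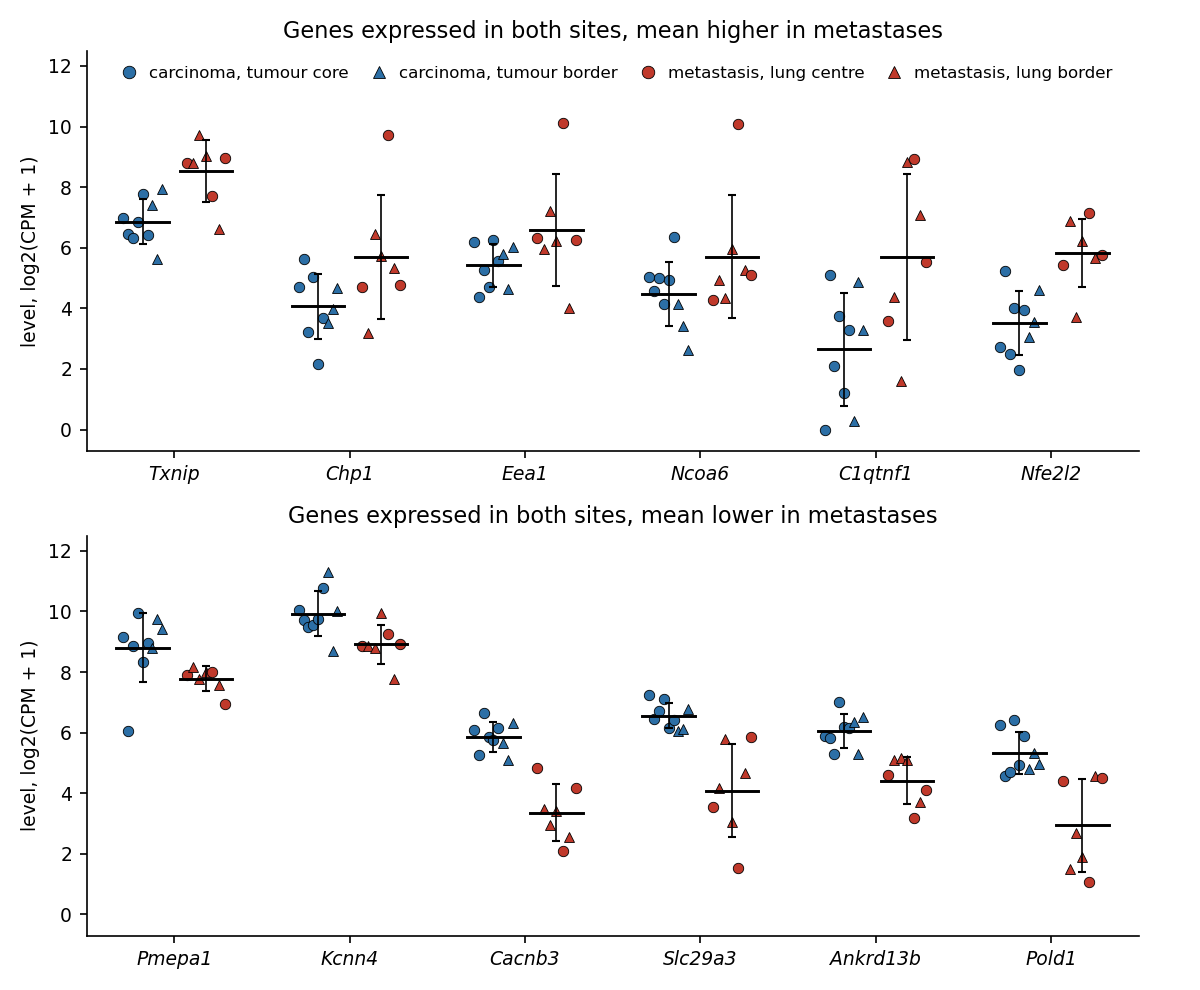
Level in each library, as log2(CPM + 1) on the y axis, of 12 genes expressed in both sites, with carcinomas in blue, metastases in red, core or centre regions as circles and border regions as triangles. Bars are means and whiskers SDs (n = 9 and 7). Single red points near 10 for Chp1, Eea1 and Ncoa6 are metastasis 42, and no points of the 2 sites overlap for Cacnb3, Slc29a3, Ankrd13b and Pold1.

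Lists of mammary epithelial identity had 0 genes passing in edgeR, DESeq2 or limma voom. The luminal list had 12 genes on each side and a median of 0.02, with 1 gene at an unadjusted p under 0.05. This was Ovol1, a transcription factor of epithelia, which was read in 9 of 9 carcinomas, up to 19.6 CPM, and in 2 of 7 metastases, up to 1.32 CPM (-4.17 ± 1.94, adjusted p = 0.409). Krt18 had 273, 515 and 906 CPM in metastases against 339, 559 and 1190 CPM in carcinomas, and Cdh1, E-cadherin, 121, 188 and 232 against 49.6, 162 and 205 CPM. Elf5, a transcription factor of alveolar mammary cells, had 210, 308 and 504 CPM against 118, 201 and 345 CPM (0.65 ± 0.32, adjusted p = 0.462). Basal and myoepithelial genes had 13 of 14 on the higher side and a median of 0.81, with 1 higher at an unadjusted p under 0.05. Krt14 and Krt5, the keratins of basal cells, had changes of 0.62 ± 0.94 and 1.17 ± 1.5. Hormone and growth factor receptors had a median of 0.26, with Esr1, the oestrogen receptor, at 0.97 ± 0.85, Prlr, the prolactin receptor, at -0.06 ± 0.47 and Erbb2, the HER2 receptor, at 0.15 ± 0.64. Of the 20 receptors 0 passed in edgeR, DESeq2 or limma voom, and 0 had an unadjusted p under 0.05.

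Milk genes had 16 of 20 on the higher side and a median of 0.62, with 0 passing in edgeR and 5 higher and 1 lower at an unadjusted p under 0.05, while limma voom called Csn3, Ltf and Spp1 and DESeq2 called Glycam1. Csn3, kappa casein, had 3784, 5869 and 14029 CPM in metastases against 3048, 5018 and 11677 CPM in carcinomas (0.32 ± 0.31, adjusted p = 0.830 in edgeR). Limma voom fitted a larger change for Csn3, 1.595 (adjusted p = 6.95e-09), which was the highest of the 30 alternatives. The sign of the Csn3 change was reversed in 2 of the 30 alternatives, and the lowest change was -0.35. Ltf, the iron-binding lactoferrin, which neutrophils also store, had 867, 1077 and 2736 CPM against 141, 220 and 2035 CPM (1.74 ± 0.65, adjusted p = 0.271; limma voom adjusted p = 3.69e-04). All 7 metastases lay above 8 of the 9 carcinomas for Ltf, and carcinoma 39 alone lay within their range. Spp1, osteopontin, had 758, 1405 and 3903 CPM against 28.1, 725 and 3627 CPM. Csn2, beta casein, was held by metastasis 42 (3158 CPM) and metastasis 58 (1565 CPM), while the other 5 metastases had at most 3.29 CPM. Muc15, a membrane mucin of milk fat globules, had 40.7, 232 and 588 CPM against 18.1, 64.7 and 168 CPM (1.54 ± 0.50, adjusted p = 0.227).

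Cell division genes overlapped between the sites. S phase genes had 25 of 36 on the higher side and a median of 0.28, and G2 and M phase genes 28 of 40 and a median of 0.56. In either list 0 passed in edgeR, DESeq2 or limma voom. Each list had 2 genes at an unadjusted p under 0.05, all higher, which is near the 5.21% of all genes on that side. Mki67, present in all cycling cells, had 28.1, 103 and 245 CPM in metastases against 51.3, 97.5 and 221 CPM in carcinomas (-0.04 ± 0.46). Top2a, which untangles DNA before division, had 79.4, 141 and 331 CPM against 54.1, 88.8 and 150 CPM (0.67 ± 0.46, adjusted p = 0.688). Gmnn, an inhibitor of repeated replication, had 12, 45.1 and 210 CPM against 1.39, 13.4 and 40.2 CPM (2.04 ± 0.82, adjusted p = 0.308), and its partner Cdt1, the licensing factor it binds, 0.182, 7.62 and 37.7 against 6.32, 24.7 and 79.7 CPM (-1.65 ± 1.07, adjusted p = 0.653). Bub1b, a checkpoint kinase, reached 245 CPM in metastasis 57 and had 4, 10.2 and 35.6 CPM in carcinomas. The summed level of the mitotic list ran from 788 to 3476 CPM in metastases and from 731 to 1966 CPM in carcinomas. Cell cycle inhibitors and p53 targets had a median of 0.17.

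Programmes often linked to spread had 0 genes passing in edgeR or DESeq2, and limma voom called 1, Spp1 of the colonisation list (adjusted p = 0.0407). Regulators and products of the epithelial-mesenchymal transition had 10 of 18 on the lower side and a median of -0.43, with 2 at an unadjusted p under 0.05, both lower. Zeb2, a repressor of E-cadherin, had 0.274, 3.15 and 15.3 CPM in metastases against 1.59, 7.36 and 84.9 CPM in carcinomas (-2.37 ± 1.15, adjusted p = 0.444), and Vim, vimentin, 4.61, 19.9 and 57.9 against 21.5, 31.7 and 155 CPM (-0.80 ± 0.80). Genes of metastatic colonisation had a median of -0.11, with 13 of 28 on the higher side and 2 at an unadjusted p under 0.05 in each direction. Mmp1a, a collagenase, reached 52.6 CPM in metastasis 27 and 0.636 CPM in the highest carcinoma, with a median of 0 in both groups. Matrix proteases and inhibitors had a median of 0.15. Timp2, a metalloproteinase inhibitor, had 0.27, 48.5 and 77.6 CPM against 25, 79.6 and 188 CPM (-1.28 ± 0.61, adjusted p = 0.433). Cell adhesion and integrin genes had a median of -0.04, with 0 of 29 at an unadjusted p under 0.05.

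Metabolic and stress lists likewise had 0 genes passing in edgeR or limma voom, and DESeq2 called 1, Nfe2l2. Hypoxia response genes had 15 of 22 on the lower side and a median of -0.80, with 3 at an unadjusted p under 0.05, all lower. P4ha1, a prolyl hydroxylase of collagen, had 0, 0.445 and 5.59 CPM in metastases against 2.75, 9.74 and 29.2 CPM in carcinomas (-2.87 ± 1.17, adjusted p = 0.315). Egln3, the oxygen sensor PHD3, had 0.811, 17.6 and 81.6 CPM against 24.1, 60.2 and 306 CPM (-1.43 ± 0.68, adjusted p = 0.424). Hilpda, a lipid droplet protein induced by low oxygen, had 0, 1.1 and 17.6 CPM against 4.18, 28.4 and 58.6 CPM (-2.10 ± 1.03, adjusted p = 0.457). Glycolysis genes had a median of -0.25. Aldoa, aldolase A, had 445, 661 and 787 CPM against 436, 754 and 3683 CPM (-0.97 ± 0.36, adjusted p = 0.271), and Slc16a1, the lactate transporter MCT1, 0.182, 31.5 and 173 against 0.236, 8.71 and 22.2 CPM (2.66 ± 1.01, adjusted p = 0.277). Nuclear genes of oxidative phosphorylation had a median of 0.17 and lipid and sterol synthesis genes one of -0.02. Nfe2l2, the NRF2 regulator of the antioxidant response, had 12, 53.3 and 140 CPM against 2.91, 10.8 and 36.9 CPM (2.37 ± 0.70, adjusted p = 0.206; DESeq2 adjusted p = 0.00836), and 6 of 7 metastases lay above all carcinomas. The list that holds it, oxidative stress and lung oxygen response, had a median of 0.17, with Nfe2l2 its only gene at an unadjusted p under 0.05.

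Immune signalling genes varied from region to region, and in bulk regions their RNA cannot be assigned to tumour or host cells. Genes of MHC class I presentation had 15 of 16 on the lower side and a median of -0.80, with 0 passing in edgeR, DESeq2 or limma voom and 0 at an unadjusted p under 0.05. H2-K1, a class I heavy chain, had 352, 847 and 2796 CPM in metastases against 188, 2980 and 6857 CPM in carcinomas (-0.98 ± 0.68, adjusted p = 0.693), and of the carcinomas 4 lay at or under 636 CPM and 5 at or over 2980 CPM. Interferon response genes had a median of 0.15. Ifit3 stood at 561 CPM in metastasis 42 and had a median of 2.19 CPM in each group. Immediate early and heat shock genes had 19 of 23 on the higher side and a median of 0.36, with Hspa1b, an inducible HSP70, at 12.7, 101 and 268 CPM against 0.529, 22.5 and 52.5 CPM (2.28 ± 0.81, adjusted p = 0.246). Chemokine and acute phase genes had 16 of 25 on the higher side and a median of 0.33, with 0 passing in edgeR or DESeq2 and 5 higher and 1 lower at an unadjusted p under 0.05, while limma voom called Cxcl15 and Ltf. Saa2, an acute phase apolipoprotein with a near-identical neighbour, had 0, 64.1 and 624 CPM against 0, 16.5 and 26.1 CPM (3.74 ± 1.12, adjusted p = 0.206). Ribosomal protein genes had a median of -0.05, and genes of the unfolded protein and amino acid response one of 0.02.

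**Figure D5:**
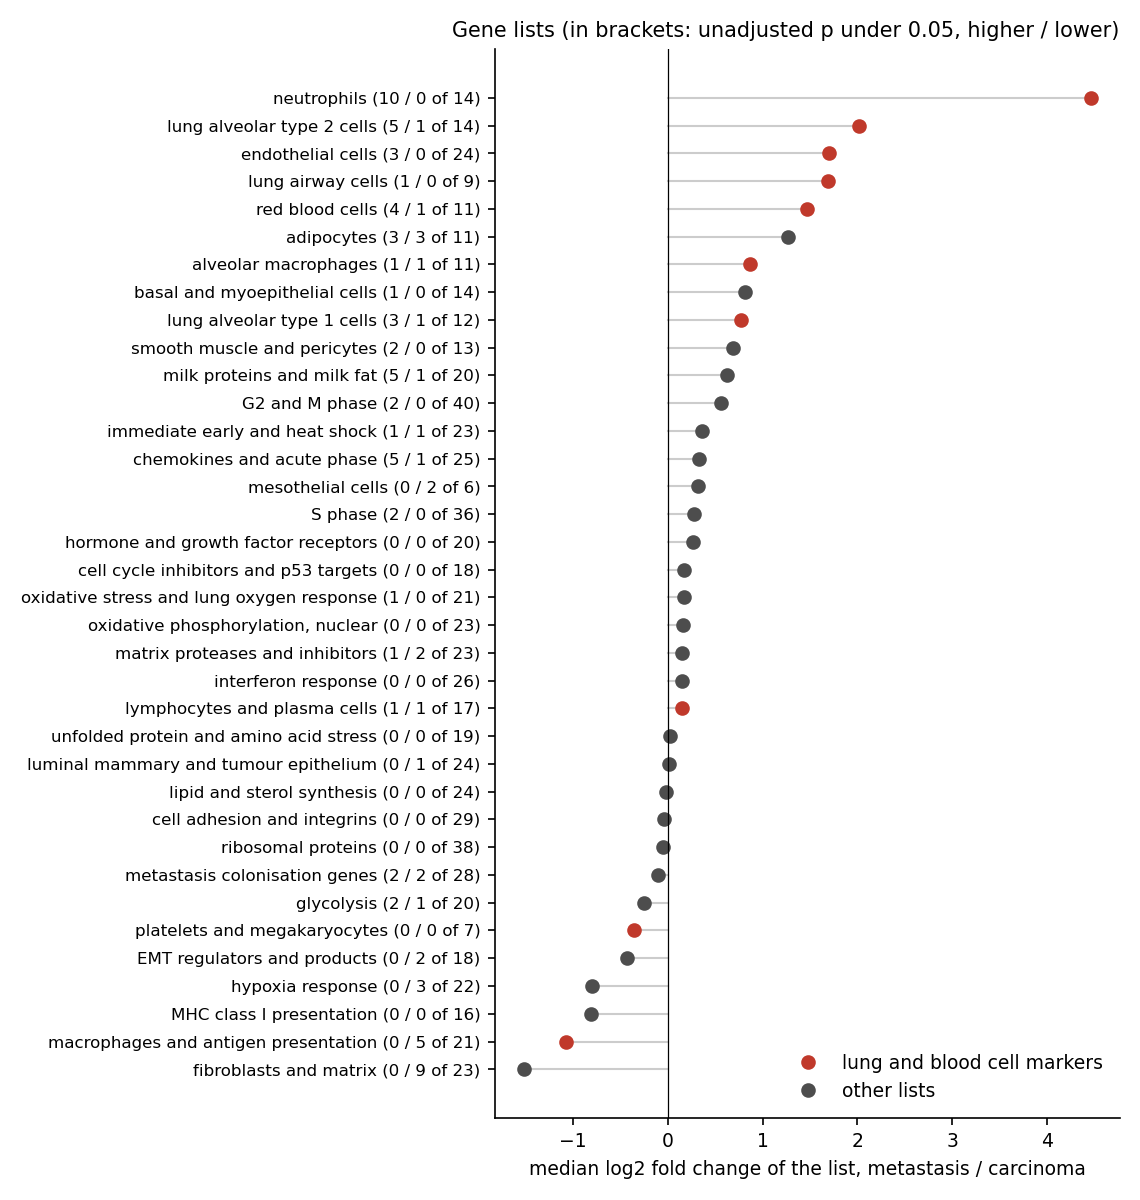
Median log2 fold change (x axis, metastasis over carcinoma) of each of the 36 gene lists, sorted, with lung and blood cell markers in red and other lists in grey. Brackets give the genes at an unadjusted p under 0.05 on the higher and on the lower side, of those tested. Over all genes tested the shares were 5.21% and 5.66%. Neutrophils (4.47) stand at the top and fibroblasts and matrix (-1.52) at the bottom, against a median of -0.01 over all genes.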

How the data were processed

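RNA of 32 laser-captured regions was made into cDNA by Smart-seq2 in the Geo-seq procedure and into libraries with Nextera XT, per the labels' protocols, and 16 of them (7 metastases, 9 carcinomas) are compared here. The authors deposited raw counts per gene ID for 24454 IDs, whole numbers without normalization, in 1 table. Reads were aligned with STAR to mm10, per the submitters' processing notes. As to the counting program, annotation, strand setting and handling of multiply aligned reads, nothing is given in the sources used here. Reads carry no molecular identifiers, so intervals and floors (3 counts) cover counting error only. Symbols and positions came from RefSeq GRCm38.p6 (24374 IDs matched, 80 did not).

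Genes were filtered with filterByExpr on stage (19907 kept), scaled by TMM and fitted over the 32 libraries, with stage as the only term, by edgeR 4.0.16 (glmQLFit, glmQLFTest, R 4.3.3). The contrast was metastasis minus carcinoma, two-sided, with Benjamini-Hochberg adjustment and a threshold of 0.05. The common dispersion came to 2.64. Standard errors are the absolute log2 fold change over the square root of the F statistic. Single values were compared by exact permutation over 11440 arrangements. Lists (36, of which 10 define host genes) are described by counts and medians. Named genes were those that passed, the 5 of smallest p each way, over all genes and within genes expressed in both sites, with a mean of 20 CPM or more on the higher side and 10 counts in 75% of the libraries there, and from each list the 3 of smallest p and the most abundant; a fixed set of identity genes and some genes seen in the data were added. The comparison, members and lists were chosen with earlier results of these data known.

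Alternatives were DESeq2 size factors and Wald test (1.42.0), limma voom with sample weights (3.58.1), other filters, covariates, subsets of regions and each library left out. Leaving out the most abundant gene ID, or metastasis 40 and 42 together, was chosen after the data were seen. The edgeR, DESeq2 and limma voom fits were tested on simulated counts in the main design, and the fits with other filters, covariates or subsets were not. No source used here names a sequencing batch.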

Additional observations from a re-analysis of the deposited data

Results flagged for a closer look

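A library was picked out where its gap to the next library took more than a share of 0.568 (groups of 7) or 0.493 (groups of 9) of the whole range of its group, read on log2(CPM + 1). This held 36 times in 346 groups of values. The cut-offs give about 1 in 20 by chance only for independent and normally distributed values. Many of these groups hold zeros, and genes and lists are related, so the 36 cannot be set against that rate. No explanation was tested.

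Carcinomas were singled out most simply for genes that the other carcinomas held at or near 0. Most of these genes are on the lung and blood lists, while Mmp1a and Car3 are not. Carcinoma 39 alone had Sftpc (0.636 CPM) and had the most Sftpa1 (1.06 CPM), Mmp1a (0.636 CPM) and Hemgn (41.9 CPM). Carcinoma 6 had the most Nkx2-1 (6.02 CPM) and alone had Scgb1a1 (0.334 CPM). Carcinoma 38 alone had Spock2 (1 count, 0.132 CPM). Carcinoma 37 had the most Cldn5 (1.9 CPM) and alone had Ngp (2 counts, 0.158 CPM), and carcinoma 8 had the most Ear2 (6.77 CPM). For Spock2 and Ngp these are under 3 counts and not distinguishable from 0. Carcinoma 7 had the most Nkg7 (8.26 CPM) and alone had Sox17 (0.581 CPM) and Car3 (0.839 CPM).

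Metastasis 42, the library with the fewest detected genes, stood apart for 9 results. It had the highest Ncoa6 (1093 CPM), Mustn1 (355 CPM), Ms4a1 (40.3 CPM) and Tgfb3 (546 CPM) and the highest sum of matrix proteases and inhibitors (1744 CPM). It had the lowest Sparc (50.8 CPM), Erbb2 (3.51 CPM), Cox4i1 (470 CPM) and Car12 (0 CPM).

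Among the other metastases, metastasis 2 had the highest Fabp4 (0.265 CPM) and Lum (0.159 CPM) and the lowest sum of basal and myoepithelial genes (219 CPM). Metastasis 58 had the highest Ms4a7 (5.08 CPM), metastasis 40 the highest Slc16a3 (131 CPM) and the lowest sum of cell cycle inhibitors and p53 targets (277 CPM), and metastasis 57 the highest sum of ribosomal proteins (47132 CPM).

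Among the other values of carcinomas, carcinoma 39 had the highest Ltf (2035 CPM) and sum of basal and myoepithelial genes (761 CPM) and the lowest Txnrd1 (17.4 CPM). Carcinoma 55 had the highest Mustn1 (10.4 CPM). Carcinoma 37 had the lowest Pmepa1 (64.8 CPM), carcinoma 53 the lowest Cdh1 (49.6 CPM) and carcinoma 38 the lowest Ifi27 (52.4 CPM).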

How the results depend on the processing

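Sftpc passed under all 30 alternatives. Sftpb missed with RFP regions alone, and Sftpa1 with RFP or with lung border regions alone. The main count was 3 genes higher (all host), 0 lower and 0 expressed in both sites. With RFP regions alone it was 1 higher, a host gene. The DESeq2 Wald test gave 85 higher and 101 lower, 19 expressed in both sites and 11 host, and 139 of these 186 had over 50% of their group's CPM in 1 library. Limma voom gave 16 higher and 3 lower, 4 expressed in both sites and 10 host. There were 5 higher without the filter on low counts and 5 with reporter colour as a covariate. Lung centre metastases alone gave 13 higher, 4 of them expressed in both sites, where 10 of the 13 had over 50% in 1 library and the median of all genes was -0.41. With a library left out the higher count was 3 to 4, the fourth being Rag2 without metastasis 40, 56, 57 or 58, and the lower and both-site counts were 0. Neither alternative chosen after the data were seen changed the counts. The share of counts in the most abundant gene ID, 6.06 percentage points higher in metastases, ran from -2.04 without metastasis 40 (exact permutation p = 0.801) to 9.75 without metastasis 27. Of 159 named genes that did not pass, 27 passed under at least 1 alternative and 120 kept their sign under all 30. The cause of these changes was not tested. No paired analysis was possible because the labels do not say which of the 3 animals a region came from and the groups share no replicate number, so regions of both groups may share an animal. A gene with under 3 counts in a library was not distinguishable from 0 there.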
